A study of Mus musculus with 6 samples.

Results

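The matrix metalloproteinases (MMPs) and their tissue inhibitors (TIMPs) were followed in cultured mouse cardiac fibroblasts with and without deletion of Tet3. The set held 10 genes, chosen by symbol from the 22063 genes of the deposited table: the 4 TIMP genes Timp1, Timp2, Timp3 and Timp4, and the 6 MMP genes Mmp2, Mmp3, Mmp11, Mmp14, Mmp19 and Mmp23. Primary fibroblasts came from hearts of mice with floxed Tet3 alleles and were transduced in culture with an adenovirus. It carried GFP without Cre in the GFP group (3 libraries) and Cre recombinase in the CRE group (labelled as Tet3 knockout, 3 libraries). The study's list of reagents names EGFP in both viruses. Every culture then received TGF-beta, given at 5 ng/ml for 24 h per the study's legend for this experiment, so there was no group without TGF-beta and the response of these genes to it was not measured. The control cells carried the floxed alleles and a virus but no Cre, so an effect of Cre itself and an effect of losing Tet3 cannot be told apart. The study speaks of biological replicates without saying whether the libraries of a group came from separate animals or from separate cultures of the same cells, so the p-values below measure only the spread between these libraries, which may be technical in part. The age of the mice is not given in the sources used here.

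MMPs are zinc-dependent endopeptidases that cut collagens, proteoglycans, adhesion proteins and growth factor carriers outside the cell. Most are made as inactive proenzymes, and TIMPs block the active enzymes by occupying the catalytic site. Fibroblasts are a main source of both in the heart, where the balance between them bears on how much collagen is kept after injury. TET3 oxidises methylated cytosine, mostly in CG dinucleotides, on the way to its removal.

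The libraries held 17002126 to 20343590 counts each, and 3 counts in a library corresponded to 0.156 to 0.187 normalised counts (CPM, after scaling by the trimmed mean of M values, TMM), which is the level at which a gene was taken as not detected. Tet3 itself was at 52.0 to 64.9 CPM in GFP and 33.6 to 35.9 CPM in CRE, so that its transcript was at 60.8% of the control level. Of 12862 genes tested with edgeR's quasi-likelihood test, 3277 were higher and 3306 lower in CRE at a Benjamini-Hochberg adjusted p under 0.05. With library size alone in place of TMM, 5529 were higher and 2083 lower, and the median log2 fold change over all genes moved from 0.0052 to 0.17. The fibroblast label was borne out by high levels of collagen and decorin transcripts (Col1a1 at 7877 to 14210 CPM and Dcn at 1043 to 2023 CPM), and all 10 fibroblast markers examined were tested. Of these 9 were lower in CRE (90.0%, against 25.7% of all genes tested) and 0 higher, with Thy1 not past the threshold. Their summed level was 30210 to 31510 CPM in GFP and 18870 to 20310 CPM in CRE, most of it Col1a1 and Col1a2. Single markers ranged in CRE from 28.7% of the GFP level for Tcf21 to 93.5% for Thy1. Markers of other cell types were also present and moved with the groups. Their calls stand beside the 25.7% of all genes tested that were lower and the 25.5% that were higher. Of 14 endothelial markers 11 were lower and 1, Eng, higher (summed 1076 to 1134 CPM in GFP, 1002 to 1052 in CRE, most of it Eng). Of 10 macrophage markers 6 were tested and 3 were lower (Adgre1, Cd14 and Lyz2; summed 59.1 to 66.8 CPM in GFP, 34.9 to 38.2 in CRE), while Ptprc had 4 to 10 counts and C1qa 0 to 3 counts in a library. Among 9 markers of smooth muscle and pericytes, 5 were lower and 1, Cspg4, was higher (119.7 to 129.2 CPM in GFP, 94.0 to 109.2 in CRE). Cardiomyocyte markers were near the detection level (10 markers, summed 0.958 to 1.30 CPM in GFP and 2.01 to 3.06 in CRE; Myh6 had no count in any library). The 1 of them that was tested, Nppb, which encodes a natriuretic peptide, was higher in CRE, with 2, 1 and 3 counts in GFP and 28, 21 and 13 counts in CRE (adjusted p = 0.000565; no fold is given, since its GFP counts are at or under the detection level). Of 6 mesothelial markers 4 were tested, with Wt1 lower and Upk3b and Krt19 higher (7.90 to 9.30 CPM in GFP, 7.34 to 11.4 in CRE). In such bulk RNA, fewer cells of a type and less RNA per cell cannot be told apart, and the part of these cells in the results below was not tested.

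Of the 9 members with enough counts to test, 6 were lower in CRE (Timp3, Mmp19, Mmp3, Mmp2, Mmp14 and Timp2), 0 were higher and 3 did not pass the threshold (Timp1, Mmp11 and Mmp23). Over all genes tested 25.7% were lower and 25.5% higher. In CPM the same 6 members had all 3 CRE libraries below all 3 GFP libraries, which 29.6% of all tested genes had. None had all 3 CRE libraries above in CPM, against 30.0% of all genes. No member was higher at an unadjusted p under 0.05, nor at an adjusted p under 0.05 in DESeq2 or limma-voom. The median log2 fold change of the 9 tested members was -0.34, against 0.0052 over all genes. Under the call rule of the study's methods, an unadjusted p under 0.05 and a ratio of the groups above 1.5 or below 0.66, Timp3, Mmp19 and Mmp3 were lower and 0 members were higher, against 10.3% of all genes lower and 7.52% higher. With library size alone in place of TMM, 4 members were lower (Timp3, Mmp19, Mmp3 and Mmp2) and 0 higher. The 6 calls covered a wide range of sizes, from a level in CRE at 46.3% of that in GFP for Timp3 to 87.95% for Timp2.

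**Figure D1:**
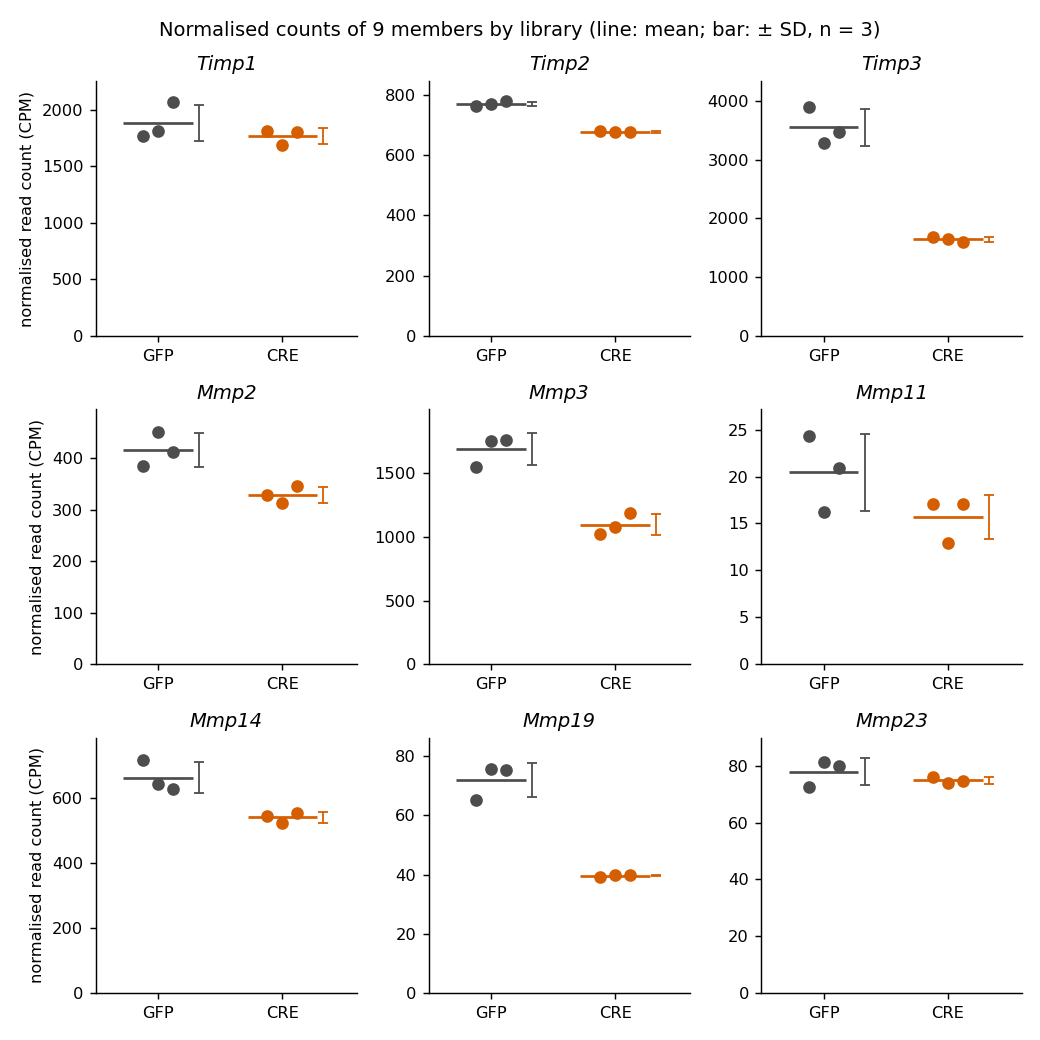
Normalised read counts (CPM, TMM scaling, linear axes from 0) of the 9 detected members in each of the 3 GFP and 3 CRE libraries; points are libraries, horizontal lines are group means and bars are ± SD (n = 3). The groups do not overlap for Timp2, Timp3, Mmp2, Mmp3, Mmp14 and Mmp19, and overlap for Timp1, Mmp11 and Mmp23.

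Among the inhibitors, Timp3 changed most. TIMP3 is the member of the family that binds to the extracellular matrix and that also inhibits several ADAM and ADAMTS proteases, ADAM17 among them. Its transcript was at 3902, 3291 and 3465 CPM in GFP replicates 1 to 3 and at 1678, 1649 and 1602 CPM in CRE replicates 1 to 3, the order kept below. Every CRE library was thus far below the lowest GFP library, and the CRE libraries lay much closer to each other (38.1 CPM SD) than the GFP libraries (315 CPM SD). The log2 fold change was -1.11 ± 0.06 (SE, adjusted p = 5.17e-07), a 2.16-fold lower level, and it lay between -1.17 and -0.94 in all 16 alternative fits, with every one past the threshold. The gene lies on chromosome 10, 86300372 to 86349506 on the plus strand (GRCm38), inside Syn3 on the minus strand, and shares 1733 exonic bases with it. Syn3, which encodes a synaptic vesicle protein, had 0 to 5 counts in a library, against 29784 to 66681 counts for Timp3.

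Timp1 encodes a secreted inhibitor of most soluble MMPs. It had 1771, 1811 and 2070 CPM in GFP and 1815, 1687 and 1805 CPM in CRE, and the groups overlapped. The difference did not pass the threshold with TMM scaling (log2 fold change -0.09 ± 0.06 SE, adjusted p = 0.236), and it was 0.07 with library size alone. Timp1 is on chromosome X, 20870166 to 20874735 on the plus strand, within Syn1 on the minus strand, with which it shares 0 exonic bases. Syn1 was higher in CRE, with 53, 62 and 72 counts in GFP and 197, 192 and 195 counts in CRE (log2 fold change 1.58, adjusted p = 3.09e-06), a level far under that of Timp1.

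Timp2 encodes the inhibitor that also takes part in the activation of proMMP2 at the cell surface. It was at 763, 769 and 778 CPM in GFP and at 681, 676 and 675 CPM in CRE. The groups did not overlap, and the spread within each was small (7.20 CPM SD in GFP and 2.93 in CRE). With TMM scaling it fell by 0.19 ± 0.04 on the log2 scale (SE, adjusted p = 0.00214), but the change was -0.02 with library size alone (adjusted p = 0.620) and 0.07, in the other direction, on the deposited FPKM values (scaled to gene length and library size, limma on log2(FPKM + 1), adjusted p = 0.369). Timp4, the TIMP of heart muscle and vessels, was not detected in either group (0, 0 and 2 counts in GFP and 1, 2 and 1 counts in CRE), so no fold is given for it. It lies within Syn2, which had 47 to 51 counts in GFP and 76 to 80 in CRE, and overlaps Gm17482, which had none in any library. Nested in an intron of Timp2, with 0 exonic bases shared, lies Cep295nl, which had 72 to 101 counts in a library.

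The gelatinase Mmp2 and the membrane-anchored Mmp14 form a known axis with Timp2. MMP14 at the cell surface, bound to a TIMP2 molecule, captures proMMP2 for cleavage. MMP2 then cuts denatured and basement membrane collagens. MMP14 is itself a collagenase of fibrillar collagen. Mmp2 was at 385, 451 and 412 CPM in GFP and 328, 314 and 346 CPM in CRE. Its lowest GFP library stayed above its highest CRE library, and the log2 fold change was -0.34 ± 0.06 (SE, adjusted p = 0.00116). In the 16 alternative fits the change lay between -0.39 and -0.17, past the threshold in each, but narrowly so in some: it was -0.18 with library size alone (adjusted p = 0.0308) and -0.17 in limma on log2(FPKM + 1) (adjusted p = 0.04998), and on FPKM the groups overlapped. Mmp14 was at 718, 644 and 629 CPM in GFP and 545, 523 and 556 CPM in CRE. These groups did not overlap either, and the log2 fold change was -0.29 ± 0.06 (SE, adjusted p = 0.00137) with TMM scaling. It was -0.13 with library size alone and missed the threshold (adjusted p = 0.0585), as it did in both limma fits on FPKM.

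Because these 3 genes act in a complex, their ratios were also taken within each library, where no scaling between libraries enters. The count of Mmp2 over that of Timp2 was 0.505, 0.586 and 0.530 in GFP and 0.482, 0.464 and 0.512 in CRE. That of Mmp14 over Timp2 was 0.941, 0.838 and 0.809 in GFP and 0.801, 0.774 and 0.824 in CRE. Both ratios had slightly lower means in CRE (90.0% and 92.7% of the GFP mean) and overlapping groups. On FPKM the mean Mmp14 to Timp2 ratio was at 86.2% of that in GFP, also with overlapping groups, while Mmp2 to Timp2 was narrowly separate (0.488 to 0.579 in GFP and 0.424 to 0.485 in CRE). The sizes rest in part on single libraries: without GFP replicate 1 the log2 change of the Mmp14 to Timp2 count ratio was -0.04 in place of -0.11, and without GFP replicate 2 that of Mmp2 to Timp2 was -0.09 in place of -0.15.

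Mmp3 encodes stromelysin-1, which cuts proteoglycans, laminin and fibronectin and activates other proMMPs. It was at 1542, 1752 and 1758 CPM in GFP and at 1021, 1074 and 1184 CPM in CRE. The highest CRE library lay well under the lowest GFP library, and the log2 fold change was -0.62 ± 0.07 (SE, adjusted p = 3.40e-05), with a level in CRE at 64.9% of that in GFP. In the 16 alternative fits the change lay between -0.68 and -0.46, past the threshold in each. Relative to Timp1, a main inhibitor of MMP3, the count of Mmp3 was 0.871, 0.968 and 0.849 in GFP and 0.563, 0.637 and 0.656 in CRE. This ratio did not overlap between the groups, and its mean in CRE was 69.1% of that in GFP.

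Mmp3 lies on chromosome 9, 7445822 to 7455975 on the plus strand, in the cluster of 10 MMP genes that spans 427.1 kb (7272514 to 7699585). Of the 7 genes of the cluster with enough counts to test, 6 were lower in CRE and 1, Mmp10, was higher. Over all genes tested 25.7% were lower and 25.5% higher. All of the 7 but Mmp3 are counted again among the other MMPs below. In order along the chromosome, the log2 fold changes were -2.71 for Mmp13, -1.78 for Mmp12, -1.18 for Mmp1b, -0.62 for Mmp3, 1.04 for Mmp10, -1.12 for Mmp8 and -0.86 for Mmp27. Mmp10, which encodes stromelysin-2 and starts 46.4 kb beyond the end of Mmp3, had 130, 169 and 148 counts in GFP and 353, 312 and 299 counts in CRE. The transcripts of the paralogs Mmp3 and Mmp10 share 65 of the 1727 distinct runs of 75 bases in Mmp3 (3.76%), so reads from a small part of them could be credited to either gene. In a search of transcripts read in their own direction, none of the other members shared any such run with another gene; genes that overlap a member on the opposite strand were not part of that search and are given with each member. Mmp12 and Mmp1b overlap each other on opposite strands. Mmp12 encodes macrophage elastase and Mmp8 the neutrophil collagenase. The summed macrophage markers were lower in CRE as well (values above), and most of that sum was Cd14 (28.1 CPM in GFP and 13.4 in CRE) and Lyz2 (23.5 and 14.6 CPM). Adgre1 was also lower (3.72 CPM in GFP and 1.55 in CRE, adjusted p = 0.00206), while Csf1r (adjusted p = 0.836), Itgam (0.817) and Cd68 (0.178) did not pass. No neutrophil markers were examined, and the part of such cells in the changes of Mmp12 and Mmp8 was not tested.

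Mmp19 is a broadly expressed MMP that cuts basement membrane proteins. It was at 65.4, 75.6 and 75.2 CPM in GFP and at 39.3, 39.8 and 39.9 CPM in CRE. The 3 CRE libraries were nearly equal, all below the lowest GFP library, and the log2 fold change was -0.86 ± 0.06 (SE, adjusted p = 3.19e-06), a 1.82-fold lower level. In all 16 alternatives it lay between -0.93 and -0.68, past the threshold. At its end on chromosome 10 (128790910 to 128800824, plus strand) Mmp19 shares 789 of its 3533 exonic bases with Tmem198b on the minus strand. Tmem198b had 309, 384 and 382 counts in GFP and 195, 180 and 181 in CRE (log2 fold change -1.02, adjusted p = 8.38e-06). Whether counting used the strand of the reads is not given in the sources used here, so reads in the shared bases cannot be assigned to either gene, and their part in this result was not tested. The antisense gene Gm47093, which shares 212 exonic bases with Mmp19, was not analysed here.

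Mmp11 and Mmp23 did not pass the threshold. Mmp11 encodes stromelysin-3, which furin activates inside the cell. It was at 24.3, 16.2 and 20.9 CPM in GFP and at 17.03, 13.0 and 17.1 CPM in CRE, with groups that overlapped through GFP replicate 2. Its log2 fold change was -0.38 ± 0.15 (SE, adjusted p = 0.0579). Without GFP replicate 2 it was -0.52 and past the threshold (adjusted p = 0.00810). Mmp11 was also called lower by DESeq2 (adjusted p = 0.0262), with no filter beyond 1 count (adjusted p = 0.0402) and with the replicate number as a block (adjusted p = 0.0050). The change was smaller without GFP replicate 1 (-0.24, adjusted p = 0.166), without CRE replicate 2 (-0.25, adjusted p = 0.199), with library size alone (-0.22, adjusted p = 0.238) and in limma on log2(FPKM + 1) (-0.11, adjusted p = 0.560). Mmp11 shares 155 exonic bases with Chchd10 on the other strand, which had 22 to 44 counts in a library. Mmp23, a membrane-linked MMP that lacks the usual cysteine switch and is released by proprotein cleavage, was at 72.6, 81.3 and 80.0 CPM in GFP and 76.1, 73.8 and 74.6 CPM in CRE. The groups overlapped, the log2 fold change was -0.06 ± 0.05 (SE, adjusted p = 0.370), and it was 0.10 with library size alone. On the deposited FPKM all 3 CRE libraries (54.6 to 55.8) lay above all 3 GFP libraries (47.8 to 53.6). Limma on log2(FPKM + 1) did not call Mmp23 (adjusted p = 0.125).

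**Figure D2:**
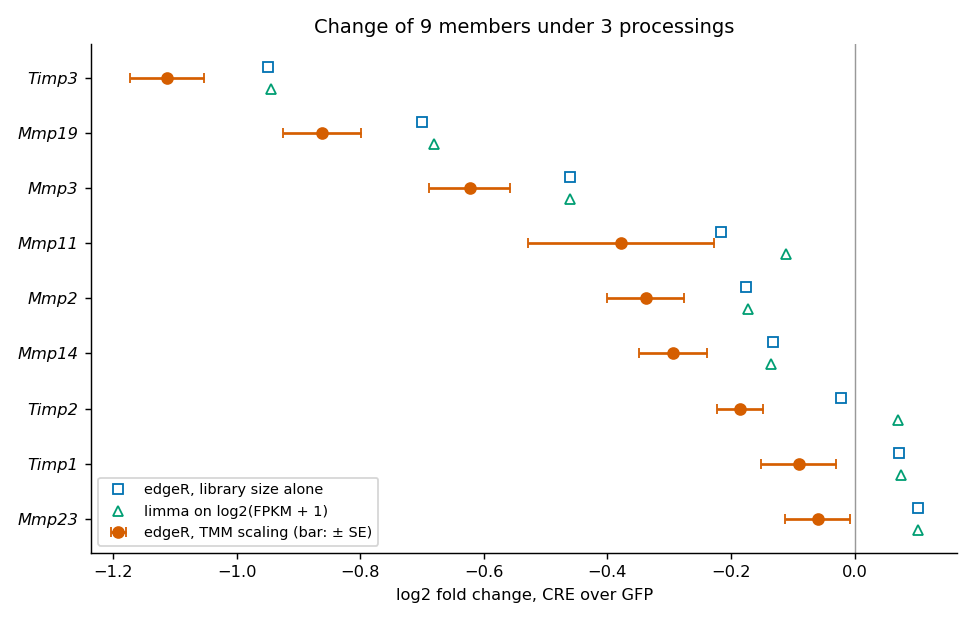
Log2 fold change (CRE over GFP) of the 9 tested members under 3 processings of the same 6 libraries: edgeR with TMM scaling (filled circles, bars ± SE), edgeR with library size alone (squares) and limma on log2(FPKM + 1) (triangles). Timp3, Mmp19 and Mmp3 stay far left of 0 under all 3, while Timp2, Timp1 and Mmp23 lie on both sides of 0.

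Levels of different genes were compared on the deposited FPKM, which are per length. Timp1 was the most abundant member in both groups (mean 2073 ± 181 FPKM in GFP and 2178 ± 78.9 in CRE, SD, n = 3). It was followed by Mmp3 (884 and 642 FPKM), Timp3 (711 and 368 FPKM), Timp2 (243 and 255 FPKM), Mmp14 (242 and 220 FPKM), Mmp2 (129 and 114 FPKM), Mmp23 (51.4 and 55.2 FPKM), Mmp19 (23.1 and 14.0 FPKM) and Mmp11 (8.77 and 7.996 FPKM). The order was thus the same in GFP and CRE. Neighbours in this order did not overlap between their libraries, except Timp2 and Mmp14 in GFP. Mmp3 made up 66.0% of the summed FPKM of the 6 MMP members in GFP and 60.9% in CRE, and Mmp23 made up 3.84% of it in GFP and 5.25% in CRE.

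**Figure D3:**
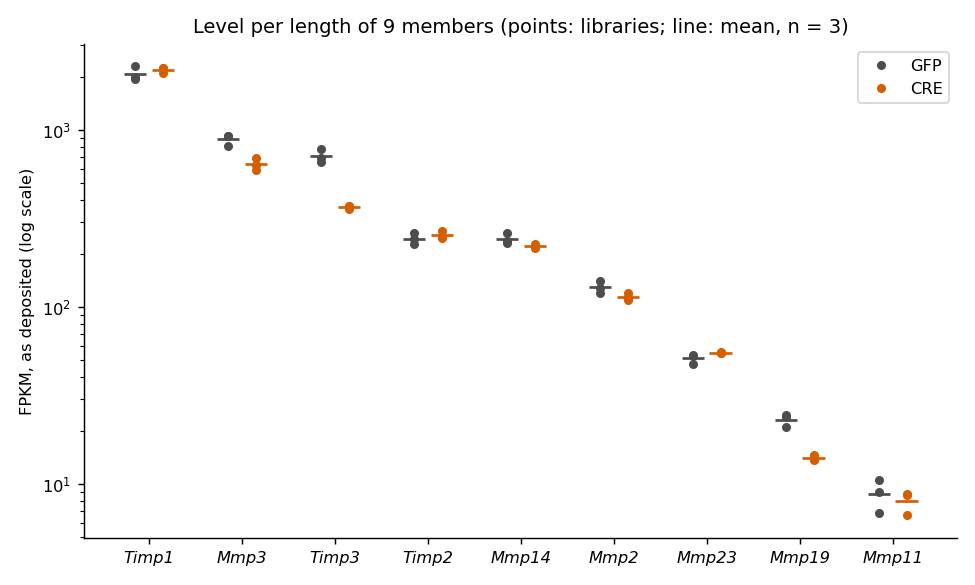
Level per length (FPKM as deposited, log axis) of the 9 detected members, ordered by their mean in GFP; points are libraries and lines group means (n = 3). The order is the same in both groups, from Timp1 at about 2073 FPKM in GFP to Mmp11 at 8.77 FPKM.

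The make-up of the inhibitor pool differed between the groups. Timp3 accounted for 26.4%, 22.8% and 21.5% of the summed TIMP FPKM in GFP and for 13.0%, 13.7% and 12.7% in CRE. Timp1 accounted for 65.9%, 68.9% and 70.5% in GFP and 77.6%, 77.1% and 78.6% in CRE. Each pair of ranges was separate. In counts, Timp3 over Timp1 was 2.20, 1.82 and 1.67 in GFP and 0.925, 0.978 and 0.888 in CRE, with a mean in CRE at 49.0% of that in GFP.

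Summed over the 4 TIMPs, FPKM was 3027 ± 184 in GFP and 2801 ± 81.5 in CRE, and over the 6 MMP members 1338 ± 60.4 in GFP and 1053 ± 57.9 in CRE (SD, n = 3). The ratio of the TIMP sum to the MMP sum was 2.33, 2.10 and 2.37 in GFP and 2.84, 2.62 and 2.53 in CRE. All 3 CRE ratios were above all 3 GFP ratios, with means of 2.26 ± 0.147 and 2.66 ± 0.158, and with the other 17 MMP genes added to the MMP sum the means were 2.19 and 2.58. This holds only per length: on summed counts, in which long transcripts weigh more, the same ratio was 2.29, 1.94 and 2.12 in GFP and 2.06, 1.97 and 1.84 in CRE, with overlapping groups and a mean in CRE at 92.3% of that in GFP. No direction of the balance between TIMP and MMP transcripts is therefore given. These FPKM sums rest mainly on Timp1 and Mmp3, and they are sums of transcript, not of active enzyme or free inhibitor. With 3 libraries against 3 an exact two-sided permutation test cannot go below p = 0.1, and the ratios are given without a test.

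**Figure D4:**
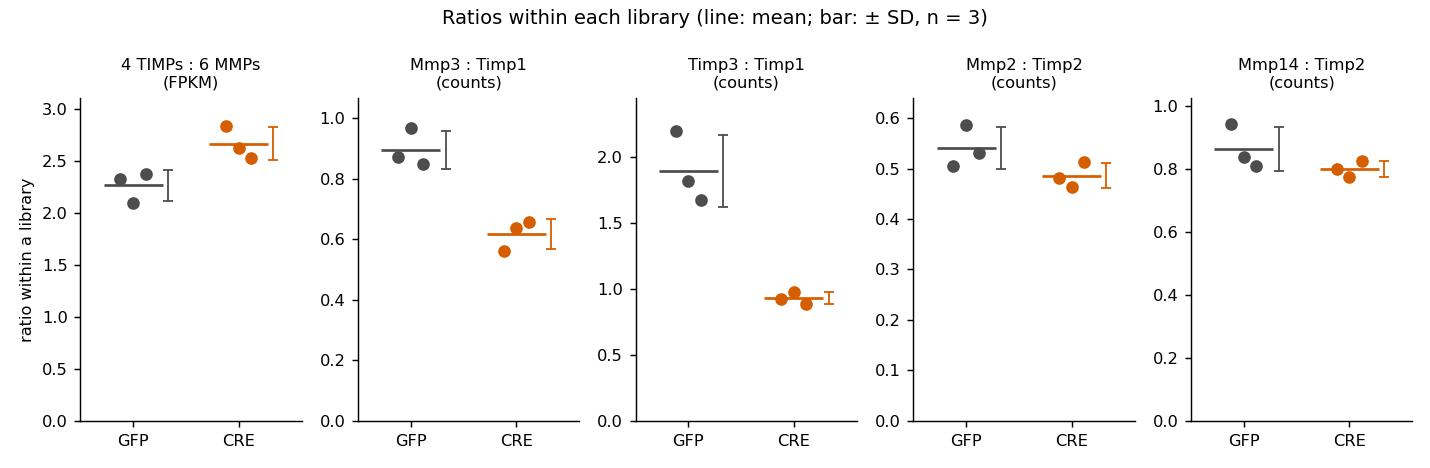
Ratios taken within each library (linear axes from 0): summed FPKM of the 4 TIMPs over that of the 6 MMP members, and count ratios of 4 gene pairs; points are libraries, lines means and bars ± SD (n = 3). The TIMP to MMP ratio on FPKM is higher in every CRE library (2.53 to 2.84) than in any GFP library (2.10 to 2.37), Mmp3 to Timp1 and Timp3 to Timp1 are lower in every CRE library, and both ratios to Timp2 overlap. On summed counts, not plotted, the TIMP to MMP ratio overlaps (1.94 to 2.29 in GFP and 1.84 to 2.06 in CRE).

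The promoters of the members differ widely in CG content, the sequence on which TET3 acts, and 3 are shown to let their windows be compared: that of Timp3, the member with the largest change, that of Mmp3, the most abundant MMP, and that of Timp1, the most abundant inhibitor, which did not pass the threshold. The sequences are from RefSeq (GRCm38.p6), on the plus strand, and end at the base before the annotated gene start; capitals mark each CG. That of Timp3 is shown as 210 bases with 13 CG, since its RefSeq start lies 40 bases inside the annotated gene.
Timp3, chr10:86300162-86300371: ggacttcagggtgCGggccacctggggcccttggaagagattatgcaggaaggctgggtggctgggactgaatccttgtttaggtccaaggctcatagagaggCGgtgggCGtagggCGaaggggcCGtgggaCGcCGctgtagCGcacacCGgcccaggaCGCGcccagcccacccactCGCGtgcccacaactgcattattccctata
Mmp3, chr9:7445572-7445821: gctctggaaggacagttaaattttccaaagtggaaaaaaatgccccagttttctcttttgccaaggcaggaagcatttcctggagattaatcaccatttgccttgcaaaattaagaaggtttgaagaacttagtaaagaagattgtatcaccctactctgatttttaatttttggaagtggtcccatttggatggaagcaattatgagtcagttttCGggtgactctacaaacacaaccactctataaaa
Timp1, chrX:20869916-20870165: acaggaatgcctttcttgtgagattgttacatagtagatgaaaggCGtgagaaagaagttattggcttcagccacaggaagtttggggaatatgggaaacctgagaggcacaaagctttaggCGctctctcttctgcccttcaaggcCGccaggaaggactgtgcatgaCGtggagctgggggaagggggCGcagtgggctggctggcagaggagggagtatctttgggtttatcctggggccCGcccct
Of the 10 members 8 matched a RefSeq promoter, with 9 promoters in all (Mmp23 has a pair). In the 250 bases before the RefSeq start, the number of CG was 21 for Timp2, 18 for Timp3, 13 and 18 for Mmp23, 14 for Mmp11, 10 for Mmp14, 6 for Timp1, 2 for Timp4 and 1 for Mmp3, against a median of 6 (quartiles 2 and 16) over 32851 promoters. Some of these windows do not lie before the annotated gene. All 250 bases of the Timp2 window are inside the annotated Timp2 gene and 203 of them are exonic, so that its count is mostly one of exon sequence. The Mmp11 window also lies wholly inside its gene, in an intron, with its RefSeq start 3.99 kb from the annotated gene start, and the Mmp23 window with 18 CG and the Timp3 window hold 94 and 40 exonic bases of their own genes. Higher and lower counts were both found among the members that were lower in CRE (Timp3 and Mmp3) and among those that did not pass (Mmp23 and Timp1). The AP-1 motif TGANTCA, searched on both strands, was found in the window of Mmp3 (46 bases before the start) and in no other member's window, and 6.75% of all promoters hold it. The TATAAA box was likewise found in Mmp3 alone (7 bases before the start, 12.4% of all promoters). No methylation was measured in these files, and a match of letters is no evidence of binding.

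Of the 17 other MMP genes 11 could be tested, and 6 were lower and 2 higher in CRE (54.5% and 18.2%, against 25.7% and 25.5% of all genes). Mmp13, an interstitial collagenase of rodents, was at 14.1, 12.5 and 15.1 CPM in GFP and 1.61, 2.44 and 2.32 CPM in CRE (log2 fold change -2.71 ± 0.16 SE, adjusted p = 7.95e-07), a larger fold than any tested member had. Mmp12 was at 9.68 ± 0.236 CPM in GFP and 2.81 ± 0.317 in CRE, and Mmp16, a membrane-type MMP, at 47.1 ± 5.62 and 24.4 ± 0.135 CPM (SD, n = 3). The 2 that were higher were Mmp10 and Mmp15, a further membrane-type MMP (0.733 to 1.82 CPM in GFP and 2.60 to 2.90 in CRE; log2 fold change 1.06, adjusted p = 0.0109). Mmp9, Mmp17 and Mmp28 did not pass. Mmp9, the other gelatinase, ranged from 6.65 to 16.1 CPM among the GFP libraries, and without GFP replicate 1 its change was -0.65 and past the threshold (adjusted p = 0.00316). Mmp27 missed the threshold without GFP replicate 3 or without CRE replicate 1 (adjusted p = 0.0688 and 0.0675), and Mmp28 passed it, higher in CRE, without GFP replicate 3 (adjusted p = 0.0183) or with library size alone (adjusted p = 0.0210). Without GFP replicate 3 the number of these genes that were higher was 4 in place of 2, with Mmp24 as the other addition (adjusted p = 0.0414). Mmp24 had 0 to 2 counts in GFP and 4, 13 and 11 in CRE, too few to pass the filter on low counts with all libraries. It also passed without GFP replicate 1, GFP replicate 2 or CRE replicate 1, and with all libraries and no filter beyond 1 count (adjusted p = 0.0118). The summed FPKM of these 17 genes was 43.8 ± 3.83 in GFP and 32.4 ± 0.560 in CRE, small beside the 1338 and 1053 of the 6 MMP members.

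Genes that switch MMPs on were called in both directions, each at a share (33.3% lower and 33.3% higher) near that of all genes (25.7% and 25.5%). Of 9 activators tested 3 were lower, Plau (urokinase, log2 fold change -1.30), Pcsk5 (a proprotein convertase, -1.20) and Bsg (basigin, an inducer of MMPs, -0.21), and 3 were higher, Plat (tissue plasminogen activator, 0.77), Pcsk7 (0.52) and Furin (0.50). Bsg did not pass with library size alone (adjusted p = 0.327). Furin, the convertase that activates proMMP14 and proMMP11, was at 229 ± 14.3 CPM in GFP and 324 ± 15.5 in CRE (SD, n = 3). Plg, Plaur and Pcsk6 did not pass, although Plg did, higher, without GFP replicate 1 (adjusted p = 0.00466) and Plaur, lower, without CRE replicate 1 (adjusted p = 0.0318).

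Of 11 genes for further inhibitors, binding partners and clearance of MMPs and TIMPs, 8 were tested. Of these 5 were lower and 1 higher (62.5% and 12.5%, against 25.7% and 25.5% of all genes). The lower genes were Thbs2 (thrombospondin-2, which carries MMP2 to uptake, -1.09), A2m (a plasma protease trap, -0.89), Cd63 (a TIMP1 receptor, -0.49), Lrp1 (the endocytic receptor for MMP and TIMP complexes, -0.48) and Reck (a membrane-bound inhibitor of MMP2, MMP9 and MMP14, -0.46, log2 fold changes). Reck was at 50.6, 51.6 and 46.5 CPM in GFP and 34.6, 34.7 and 38.9 CPM in CRE, with separate groups. Tfpi2, a secreted inhibitor of serine proteases such as plasmin, was higher (0.28) with overlapping groups, and missed the threshold without CRE replicate 1 or 2 (adjusted p = 0.0550 and 0.0566). A2m missed it without GFP replicate 3 or CRE replicate 3 (adjusted p = 0.0535 and 0.0574). Thbs1 and Pzp did not pass, although Pzp did, higher, without GFP replicate 1 (adjusted p = 0.00605).

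Of 8 genes of other routes of collagen breakdown 7 were tested (Dpp4 was not), of which 6 were lower (85.7%, against 25.7% of all genes) and 0 higher, with Htra1 not past the threshold. With library size alone 4 were lower. The 6 were Ctss (-1.36), Ctsk (cathepsin K, a collagen-cutting lysosomal protease, -1.16), Fap (-1.11), Ctsl (-0.46), Mrc2 (an uptake receptor for collagen fragments, -0.20) and Ctsb (-0.19 on the log2 scale). Ctss had only 14 to 26 counts in a GFP library and 6 to 11 in a CRE library. Mrc2 and Ctsb did not pass with library size alone (adjusted p = 0.506 and 0.657). Of 7 ADAM sheddases, which TIMP3 can inhibit in part, Adam19 (-0.62) and Adam12 (-0.26) were lower and Adam17 (0.44) and Adam10 (0.11) higher, 28.6% in each direction and so near the share of all genes. Adam12 did not pass with library size alone (adjusted p = 0.108), and Adam10 lost its call without GFP replicate 1 or 3 or any of the CRE replicates (adjusted p 0.0682 to 0.120) and in DESeq2 (adjusted p = 0.0679). With library size alone, Adam9 and Adam15 were called higher as well. Adam17, the TNF-alpha convertase, was at 90.1, 95.0 and 89.5 CPM in GFP and 121, 120 and 131 CPM in CRE. Without GFP replicate 2, Adam8 passed as higher (adjusted p = 0.0485).

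**Figure D5:**
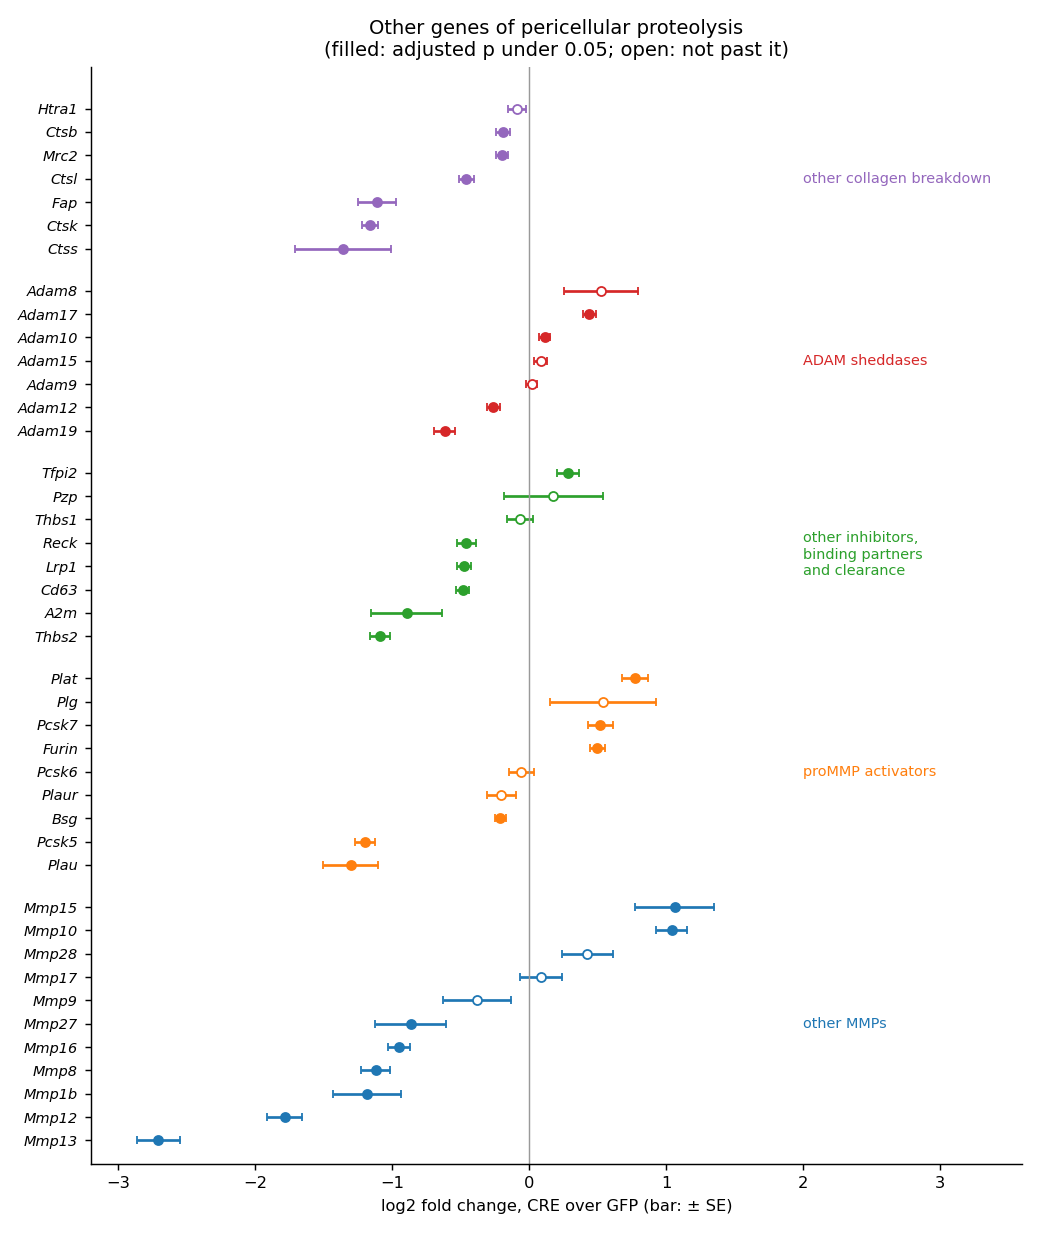
Log2 fold change (CRE over GFP, bars ± SE, edgeR with TMM scaling, 3 libraries a group) of the tested genes of 5 lists around the members; filled points have an adjusted p under 0.05 and open points do not. The other collagen-breakdown genes all lie left of 0, and the activators and ADAM sheddases lie on both sides; Htra1, Thbs1, Pcsk6 and Pzp, all open points near 0, change side under other settings, as does Mmp17.

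The AP-1 and ETS factors, which bind sites common in MMP promoters, were examined as well. Of 10 tested 7 were higher in CRE (70.0%, against 25.5% of all genes), and 5 without GFP replicate 3. Fosb (log2 fold change 3.05), Fos (1.27) and Junb (1.05) were in front, followed by Jun, Fosl1, Etv4 and Ets1. Fosl2 (-0.69) and Ets2 (-0.20 on the log2 scale) were lower, and Jund did not pass. The calls of Etv4, Ets2 and Fosl1 each depended on single libraries: Etv4 lost its call without GFP replicate 1 or 3 or CRE replicate 1 or 2 (adjusted p 0.0788 to 0.105), Ets2 without GFP replicate 2 or 3 or any CRE replicate (adjusted p 0.0530 to 0.154), as well as with library size alone (adjusted p = 0.695), and Fosl1 without GFP replicate 3 (adjusted p = 0.0543).

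Gene Ontology terms in the deposited table gave a wider view of the same functions with the members left out. Of 78 other tested genes with metalloendopeptidase activity, 28 were lower (35.9%) and 19 higher (24.4%), with a median log2 fold change of -0.0092, close to the 0.0052 of all genes. Of 21 other tested genes of collagen catabolism, 11 were lower and 4 higher, with a median of -0.25. Extracellular matrix disassembly, a term that none of the members carries in this table, had 7 of 12 tested genes lower and 2 higher, with a median of -0.34. Among 7 other tested genes with metalloendopeptidase inhibitor activity, 3 were lower and 1 higher. These lists overlap, and their shares are descriptions beside the 25.7% of all genes that were lower.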

How the data were processed

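Per the labels, RNA of cardiac fibroblasts was sequenced in 3 GFP and 3 CRE libraries. The authors trimmed reads with Trimmomatic, mapped them to GRCm38 with HISAT2, deposited counts per gene from HTSeq-count and deposited FPKM values from Cufflinks; versions and the strand setting are not given in the sources used here, and the labels and the methods name different library kits. The deposited log2 fold changes, p-values and FDR of the authors' own comparison were not used, nor their group means. Counts were tested with edgeR 4.0.16 in R 4.3.3 (TMM, filterByExpr with a minimum count of 10 and a minimum total of 15, quasi-likelihood test, two-sided, no covariate, Benjamini-Hochberg over 12862 genes), after a test on simulated data. Log2 fold changes are CRE over GFP. The exact permutation test over 6 CPM values cannot go below p = 0.1, which each member with separate groups reached. Alternatives were other scalings and filters, DESeq2 1.42.0, limma 3.58.1 (voom, and log2(FPKM + 1) or log2(FPKM + 0.1)), a replicate block, each library left out and the study's call rule (an unadjusted p and a fold limit). The totals give 3 counts as a detection level, for counting error only. All 10 members are named; of other lists, the 3 highest and 3 lowest calls with separate groups, any 5 or fewer, and genes overlapping a member. The members and all lists were chosen with earlier results of these data known. Annotation was GENCODE M21 for GRCm38, and promoters RefSeq; for Mmp2 and Mmp19 no promoter was used here. A gene of another list is not reported here.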

Additional observations from a re-analysis of the deposited data

How the results depend on the processing

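Timp3, Mmp2, Mmp3 and Mmp19 stayed lower and past the threshold in all 16 alternative fits, and no member was called higher in any. The number of members called lower was 4 with library size alone and in both limma fits on FPKM, 6 or 7 in the other fits, and 3 by the study's call rule, with its stricter fold limit. Leaving out 1 library gave 6 or 7. The labels do not say whether same-numbered libraries were paired. Deviations of same-numbered libraries correlated at 0.046, 0.180 and -0.018, which with 3 libraries a group cannot decide whether they shared a preparation. With the replicate block 7 members were lower, Mmp11 added (adjusted p = 0.0050), among 3260 genes higher and 3373 lower. Timp1 reversed to 0.0712 with library size alone and to 0.0742 in both limma fits, Timp2 to 0.0699 and 0.0701 in the limma fits, and Mmp23 to 0.1021, 0.1025 and 0.1043, none of them past the threshold. These settings do not take up the TMM factors, 0.944 to 0.947 in GFP and 1.05 to 1.06 in CRE. The Mmp14 to Timp2 ratio had a log2 change of -0.11 in counts and -0.21 in FPKM. The TIMP to MMP ratio, with a log2 change of 0.23 in FPKM, reversed to -0.12 on summed counts, an alternative chosen after seeing the data. Without 1 library in turn, the log2 change was 0.18 to 0.27 for the TIMP to MMP ratio in FPKM, -0.58 to -0.47 for Mmp3 to Timp1, -1.11 to -0.91 for Timp3 to Timp1, -0.20 to -0.09 for Mmp2 to Timp2 (smallest without GFP replicate 2) and -0.15 to -0.04 for Mmp14 to Timp2 (smallest without GFP replicate 1). Among other genes not past the threshold, library size alone reversed Pcsk6 (0.1049), Thbs1 (0.0975), Htra1 (0.0764) and Jund (0.145, adjusted p = 0.0408). The limma fits reversed Thbs1 (0.0910 and 0.0911), Htra1 (0.0701 and 0.0719) and Jund (0.141 and 0.145), and upper-quartile scaling Jund (0.0019). Leaving out 1 library at a time also moved Mmp17 (-0.0301 to 0.2419), Pcsk6 (-0.1325 to 0.0253), Pzp (-0.0830 to 0.8332), Thbs1 (-0.1743 to 0.0346) and Jund (-0.0459 to 0.0142) to both sides of 0. The causes were not tested. Timp4 stayed under 3 counts in each library, so no difference in it was detectable at this depth.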

Other observations

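The deposited counts and FPKM of a gene imply an effective length, in proportion to the count over the product of FPKM and the library total. For Timp3 it was 4.72 kb in all 6 libraries and for Mmp3 1.80 kb. For Timp2 it was 3.18, 3.01 and 2.82 kb in GFP and 2.68, 2.86 and 2.90 kb in CRE, and for Mmp11 it was 2.19 to 2.23 kb in GFP and 2.05 to 2.10 kb in CRE. For Mmp19 it was 2.91 to 2.995 kb in GFP and 2.915 to 3.057 kb in CRE. Mmp2 (3.04 to 3.063 kb) and Mmp14 (2.578 to 2.598 kb) varied less. The count and FPKM values of Timp2, Mmp11 and Mmp19 are thus not in a fixed proportion across libraries. Whether different transcripts of these genes were in use was not tested.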
